A study of Xenopus laevis with 3 samples.

Results

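Genes of the Notch pathway and of the basic helix-loop-helix (bHLH) transcription factor families, together with clock and hypoxia genes, were examined in the inner ear of *Xenopus laevis* larvae. The set was chosen by gene symbol, and no measured value entered the rule, though earlier results of these data were known. It held the *X. laevis* probe set IDs (Xl-PSIDs) annotated with a single symbol that begins as those of Notch receptors, Notch ligands, Fringe, Deltex, Hes, Hey, proneural, Id, E protein, myogenic, Mxd, hypoxia or clock genes do. The rule found 123 of 15495 Xl-PSIDs with a single symbol. They stood for 65 genes once the L and S copies (homeologs) of the *X. laevis* subgenomes were joined. Of the 123 Xl-PSIDs, 52 belonged to Notch pathway genes with their Hes and Hey targets and 71 to the other families. The rule also takes in *mamld1* and *hif1an*, which are neither core Notch genes nor bHLH factors, and the *per* and *cry* genes, which encode clock proteins without a bHLH domain.

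RNA came from inner ear tissue of larvae at stages 50 to 52 (*s50*), aged 15 to 21 days after fertilization and bought from Nasco. No treatment was applied, and a strain or genotype was not given in the sources used here. Replicates were 3 pools of 15, 38 and 24 animals with a mean weight of 0.15, 0.14 and 0.16 g, and labelling started from 1, 1 and 0.7 µg of RNA. The pools are named s50_1, s50_2 and s50_3 here, and each was hybridized to 1 Affymetrix array. Values are log2 intensities in arbitrary units (a.u.) as deposited and are given in the order s50_1, s50_2 and s50_3, followed in brackets by the mean ± SD over the n = 3 arrays. The *s56* and juvenile arrays of the study were not analysed here, so a single condition remains and no test between groups could be run. Detection meant a mean of 4 or more, the average intensity that the study's filter asks for. Spread between replicates was given as the range, which is the difference between the highest and the lowest array, and as the difference of an array from the mean of the others, each with a threshold of 1.5 on the log2 scale. Since the intensity of an Xl-PSID also depends on its probes, a higher level on an Xl-PSID was not read as more RNA than on another. Levels were still used to pick the Xl-PSID that stands for a gene and the values to print. They also entered the sums over marker lists, which depend on the brightness of the probes. The number of arrays limits the precision of every value.

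The Notch pathway carries signals between touching cells. A ligand of the Delta or Jagged type on a cell binds the Notch receptor of its neighbour, gamma-secretase cuts the receptor, and the freed part joins RBPJ and a Mastermind protein in the nucleus to switch on Hes and Hey repressors. In the vertebrate inner ear, ligands made by newly formed hair cells hold their neighbours as supporting cells in this way. The Hes and Hey repressors act against proneural bHLH factors, which need an E protein as partner, while Id proteins bind E proteins and keep them off DNA.

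Of the 123 member Xl-PSIDs, 73 were detected on the *s50* arrays, or 59.3%, beside 73.3% of all Xl-PSIDs with a single symbol. By gene, with the Xl-PSID of the highest mean standing for each, 42 of 65 members were detected (64.6%), beside 80.5% of all 9271 genes. The classes differed in how many members were detected. The gamma-secretase genes, the nuclear complex, the Id genes and the single Notch receptor had every Xl-PSID detected, and the E proteins had 11 of 12. The proneural and neural factors had 1 of 12 detected, and the mesodermal and blood factors had 2 of 12. Of the 50 Xl-PSIDs not detected, 42 had every value below 2.5. The 42 control probe sets for *Bacillus subtilis* transcripts, foreign to larval RNA, had values from 1.83 to 2.17.

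**Figure D1:**
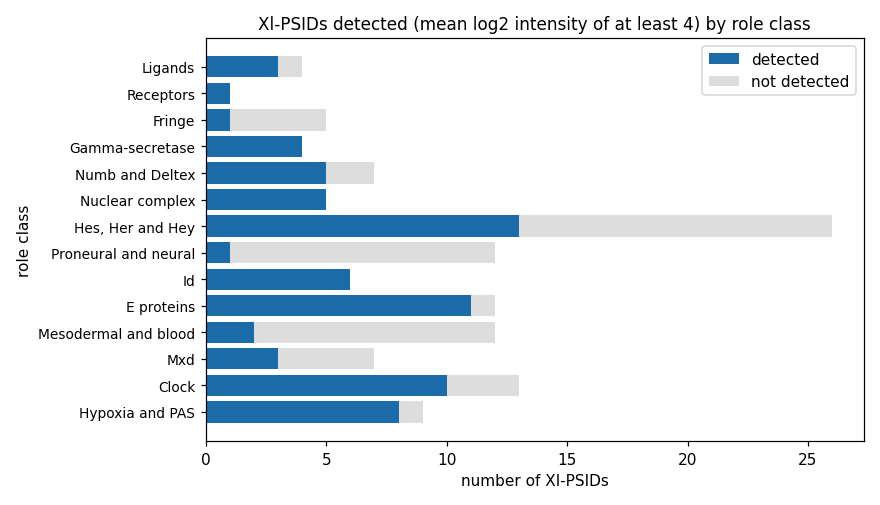
Number of member Xl-PSIDs (horizontal axis) in each role class (vertical axis), split into those with a mean log2 intensity of at least 4 over the 3 *s50* arrays and those below it. The Hes, Her and Hey class had 13 of 26 detected, while the proneural and neural class had 1 of 12 and the mesodermal and blood class 2 of 12. The class of Numb and Deltex holds Deltex Xl-PSIDs only.

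Few members lay near the detection threshold. The Xl-PSID just above it was that of *twist1.L*, with a mean of 4.44, and the Xl-PSID just below it was 1 of *hes5.5.S*, with a mean of 3.38. Of the 73 detected Xl-PSIDs, 69 were at 4 or above on every array. The others were those of *twist1.L*, *hif1a.L*, *tcf3.L* and *tcf3.S* that are described below. Of the 50 not detected, 3 reached 4 on an array, which was s50_1 for each of them, and they belonged to *hes4.S* (4.15), *hes5.5.S* (4.05) and *neurod6.L* (5.33).

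The tissue label was compared with marker genes of the inner ear and of cells that may lie in or near a dissected ear. A marker counted as measured if an Xl-PSID carried the listed symbol alone, apart from an L or S ending. Genes on the array under another name or with several symbols were therefore missed. Oncomodulin, for which the study reports Xl-PSIDs, had no such match. Of 20 hair cell markers 3 were measured and all 3 were detected. They were *myo6.L*, an unconventional myosin of hair cells (12.65 ± 0.44), *cib2.S*, a part of the mechanotransduction complex (8.77 ± 0.25), and *pvalb.S*, a calcium buffer that muscle also makes (8.55 ± 0.39). The defining hair cell genes *myo7a*, *otof* and *pou4f3* were not analysed here. Of 15 markers of supporting cells, otoconia and the tectorial membrane 6 were measured and 5 detected, among them *sox2*, *sox9* and *gjb2*, while *prox1* was not. No otoconial or tectorial gene was among the 6. Neuron markers had 12 of 13 detected, with *elavl3* below the threshold, and skeletal muscle markers had 8 of 12 detected. The 3' minus 5' difference of the control probe sets, which grows with RNA degradation or short labelled product, was 3.24, 5.18 and 3.15 for *ef1a* and 1.19, 2.06 and 1.64 for *gapdh*. It was largest on s50_2 for both. The study reports that every replicate on the arrays met its minimum RNA integrity number, and the cause of the difference was not tested.

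Notch ligands were represented by *jag1*, *dll1* and *dlc*, and the first 2 of these genes were detected. The intensity of *jag1.L*, a Jagged ligand that marks the prosensory regions of the ear in the mouse, was 13.99, 13.63 and 12.63 (13.42 ± 0.70). The Delta ligand gene *dll1.L* had 2 Xl-PSIDs, the first with 9.82, 10.12 and 8.0 (9.31 ± 1.15) and the second with 8.59, 8.54 and 4.18 (7.10 ± 2.53). The first can match several transcripts. Every detected ligand Xl-PSID was lowest on s50_3, which lay 1.17 below the mean of the other arrays for *jag1.L* and 1.98 and 4.39 below it for *dll1.L*. On s50_2 the first was higher than on s50_1 by 0.30 and the second lower by 0.06, so s50_3 alone stood apart. The second Xl-PSID of *dll1.L* had a 21.3-fold range on the linear scale and the first a 4.37-fold range. The ligand gene *dlc.L*, named after a Delta gene of the zebrafish, was not detected (2.13 ± 0.27).

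The receptor *notch1.S* differed little between replicates. It had 12.04, 12.24 and 12.05 (12.11 ± 0.11), and no other Notch receptor was analysed here. The Fringe genes encode glycosyltransferases that add sugar to Notch and so alter which ligand it answers to. The intensity of *rfng.L* was 12.31, 12.13 and 11.63 (12.02 ± 0.35) on an Xl-PSID that can match several transcripts, while its other Xl-PSID had 2.17, 2.21 and 2.22 (2.20 ± 0.03). The Xl-PSIDs of this gene thus differed in detection itself. For *lfng*, which supporting cells of the mouse ear express, none of 3 Xl-PSIDs was detected, and that of *lfng.S* had 3.79, 2.07 and 2.13 (2.66 ± 0.97). The s50_1 value of *lfng.S* was the only one of its class between the values near 2 and the threshold.

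The gamma-secretase members had SDs of 0.40 to 0.69 and did not all share an order of the arrays. The catalytic subunit gene *psen2.S* had 11.60, 11.57 and 10.39 (11.19 ± 0.69), with s50_3 lowest. The subunit gene *psenen* had 11.49, 11.71 and 12.28 (11.82 ± 0.41) for its L copy and 11.24, 11.28 and 11.98 (11.50 ± 0.41) for its S copy. The scaffold subunit gene *aph1a.S* had 9.78, 10.15 and 10.57 (10.17 ± 0.40). In contrast to *psen2.S*, these Xl-PSIDs were highest on s50_3 and lowest on s50_1. None of the 4 gamma-secretase Xl-PSIDs reached a range of 1.5.

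Deltex genes encode ubiquitin ligases that bind Notch and steer its traffic in the cell. Of 7 Xl-PSIDs 5 were detected, and both Xl-PSIDs of *dtx1* were not, with no value above 2.13. The intensity of *dtx3.L* was 9.45, 9.89 and 9.77 (9.70 ± 0.23), that of *dtx3.S* was 8.67, 8.98 and 8.30 (8.65 ± 0.34), and that of *dtx4.L* was 9.10, 9.40 and 9.33 (9.28 ± 0.15). These 3 Xl-PSIDs were highest on s50_2. The smallest SD among the detected members, 0.03, was that of *dtx2.S* (7.61, 7.55 and 7.58). The gene annotated *dtx3-like.L* had 5.42, 6.47 and 6.55 (6.15 ± 0.63).

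In the nuclear complex, RBPJ binds DNA and Mastermind proteins bridge it to the cleaved receptor. All 5 Xl-PSIDs of the class were detected. The Mastermind gene *maml1.L* had 8.38, 7.10 and 8.09 (7.86 ± 0.67). For *mamld1.L*, which carries a Mastermind-like domain, the values were 10.71, 9.63 and 9.67 (SD 0.61). Both were highest on s50_1, with s50_2 lower by 1.07 for *mamld1.L*. Of the 3 Xl-PSIDs of *rbpj.S*, the first had 8.68, 7.64 and 6.83 (7.72 ± 0.93) and the second had 7.32, 5.99 and 7.61 (6.97 ± 0.87). These Xl-PSIDs of *rbpj.S* passed the range of 1.5 with different orders of the arrays, since the first was lowest on s50_3 and the second highest there. The third had 6.77, 6.17 and 5.49 (6.15 ± 0.64), with the order of the first and a range of 1.28. The first Xl-PSID of *rbpj.S* can match several transcripts.

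Hes and Hey genes encode bHLH repressors, many of which Notch switches on. Of their 26 Xl-PSIDs 13 were detected, and by gene 6 of 13. The detected genes were *hes1*, *hes4*, *hes5.1*, *hes5.2*, *hes5.7* and *hey1*, and the others were *hes2*, *hes5.3*, *hes5.5*, *hes5.6*, *hes5.10*, *hes7.1* and *hes7.2*. In the mouse, *hes1* and *hes5* restrain hair cell formation, and *hes7* drives the segmentation clock of the body axis. The 6 Xl-PSIDs of *hes7.1* and *hes7.2* had means of 1.94 to 2.06.

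The replicates were close for *hes1* and for an Xl-PSID of *hey1*. Values of *hes1.S* were 11.64, 11.57 and 11.54 (11.58 ± 0.05), and *hes1.L* had a mean of 11.33 ± 0.17. An Xl-PSID of *hey1.S*, which in the mouse is active in the prosensory region of the cochlea, had 12.55, 12.46 and 12.37 (12.46 ± 0.09). The other Xl-PSID of *hey1.S*, which can match several transcripts, had 9.35, 7.70 and 6.85 (7.97 ± 1.27). The Xl-PSIDs of *hey1.S* had the same order of the arrays and a range of 0.18 in the first and 2.5 in the second.

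In contrast to *hes1*, the Xl-PSIDs of *hes4* and *hes5.1* were spread between replicates. In *Xenopus* embryos *hes4* acts at the border of the neural plate and in the neural crest. The intensity of *hes4.L* was 11.02, 9.91 and 8.32 (9.75 ± 1.36), with a 6.50-fold range on the linear scale. An Xl-PSID of *hes4.S* had 10.03, 7.77 and 8.08 (8.63 ± 1.22), and another had 9.27, 8.42 and 7.34 (8.34 ± 0.97). All 4 detected Xl-PSIDs of *hes4* were highest on s50_1, and 3 of them were lowest on s50_3. The values of *hes5.1* were 10.88, 10.53 and 8.89 (10.10 ± 1.06) for the L copy and 12.14, 11.77 and 10.52 (11.48 ± 0.85) for the S copy. In both copies s50_1 and s50_2 were close, by 0.35 for the L copy and 0.37 for the S copy, while s50_3 was lower than the mean of the others, by 1.81 for the L copy and by 1.43 for the S copy.

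The *hes5* genes of *X. laevis* lie in 2 runs of neighbours on each subgenome in the order of the RefSeq annotation. The first run holds *hes5.1* and *hes5.2*, and both genes were detected from both subgenomes. The gene *hes5.2* had 10.43 ± 0.17 for its L copy and 4.77 ± 0.20 for its S copy, with none of the lowering on s50_3 seen for *hes5.1*. The second run holds 8 genes, of which *hes5.3*, *hes5.6*, *hes5.7* and *hes5.10* were measured from the L subgenome and *hes5.5* from the S subgenome. In this run *hes5.7.L* was the only gene detected, with 5.70, 6.33 and 6.51 (6.18 ± 0.43). Genes of a tandem run are similar in sequence, and their Xl-PSIDs may share signal.

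**Figure D2:**
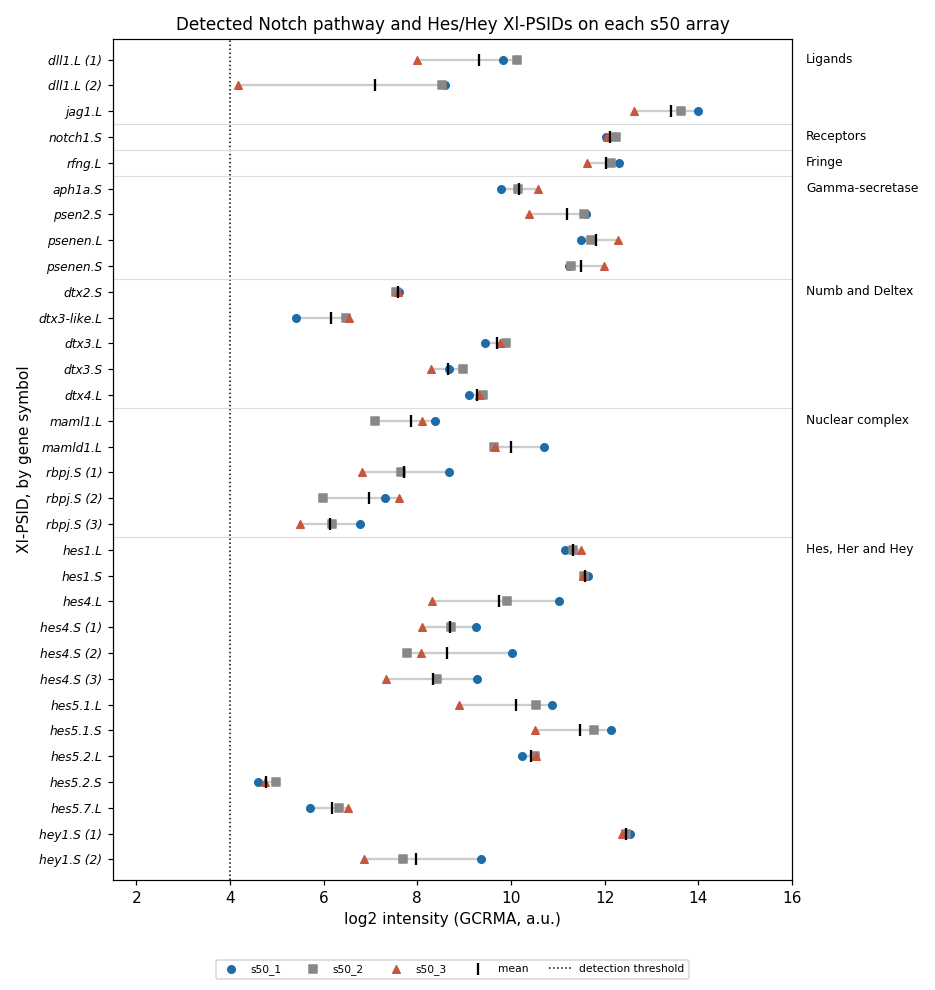
Log2 intensity (GCRMA, a.u.; horizontal axis) of each detected Notch pathway and Hes or Hey Xl-PSID (vertical axis) on the arrays s50_1 (circle), s50_2 (square) and s50_3 (triangle), with the mean as a black bar and the detection threshold of 4 as a dotted line. The points of *notch1.S*, *hes1.S* and an Xl-PSID of *hey1.S* nearly coincide, whereas *dll1.L*, *hes4.L* and *hes5.1* have s50_3 to the left of the other arrays.

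Among the proneural and neural bHLH factors only *neurod1* was detected, of 6 genes measured. In the mouse ear *neurod1* is needed by the sensory neurons of the vestibular and spiral ganglia. Its S copy had 12.60, 11.63 and 10.76 (11.66 ± 0.92), and its L copy was not detected, with 3.78, 1.89 and 1.91 (2.53 ± 1.09). Both copies of *neurod1* were highest on s50_1. The cortical factor gene *neurod6.L* reached the threshold on that array alone, with 5.33, 2.0 and 2.02 (3.11 ± 1.92). For *neurog2*, which acts in neural precursors, an Xl-PSID of the S copy had 2.34, 3.47 and 2.57 (2.80 ± 0.60), and the others were near 2. The factor genes *ascl2*, *atoh7* and *neurod4* had no mean above 2.01. The genes *atoh1*, which makes hair cells, and *neurog1*, which makes the neurons of the ear, were not analysed here.

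All 6 Xl-PSIDs of the Id genes were detected, and their SDs were 0.08 to 0.57. The intensity of *id3.L* was 13.35, 13.31 and 13.21 (13.29 ± 0.08) and that of *id3.S* was 13.09, 12.95 and 12.54 (12.86 ± 0.29). The Xl-PSID of *id3.L* holds probes that can match other transcripts. For *id2.L* the values were 12.96, 12.58 and 12.12 (12.55 ± 0.42). These 3 Xl-PSIDs were highest on s50_1 and lowest on s50_3, and none of the class reached a range of 1.5. An Xl-PSID of *id4.S* had a mean of 12.14 ± 0.10.

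The E proteins, which pair with proneural and other tissue-specific bHLH factors, were represented by *tcf3* and *tcf12*. The intensity of *tcf12.S* was 12.74, 12.28 and 12.34 (12.45 ± 0.25) on an Xl-PSID and 6.91, 6.31 and 5.33 (6.18 ± 0.80) on another. The latter can match several transcripts. A further Xl-PSID of *tcf12.S* was not detected (2.44 ± 0.02), and that of *tcf12.L* had a mean of 5.43 ± 0.61. For *tcf3* there were 8 Xl-PSIDs, all detected, all highest on s50_1 and all lowest on s50_3. The spread on these Xl-PSIDs differed widely. An Xl-PSID of *tcf3.L* had 13.80, 13.71 and 12.80 (13.44 ± 0.55), and another had 9.40, 8.32 and 8.22 (8.65 ± 0.65). The remaining 2 of *tcf3.L* had 10.72, 9.78 and 8.05 (9.52 ± 1.35) and 7.31, 4.99 and 2.88 (5.06 ± 2.21).

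The S copy of *tcf3* was spread widely between replicates. Its Xl-PSIDs had 9.62, 8.20 and 5.6 (7.81 ± 2.04), then 9.36, 8.0 and 4.07 (7.14 ± 2.75). The other pair had 9.69, 7.32 and 4.06 (7.02 ± 2.82) and 7.83, 6.01 and 2.86 (5.56 ± 2.52). On s50_3, 2 of these Xl-PSIDs lay just above the threshold, 1 lay below it and 1 was higher, with ranges of 4.01 to 5.63 and a linear range of up to 49.4-fold. Of the 6 Xl-PSIDs of *tcf3* with a range of at least 1.5, 2 hold probes that can match other transcripts and 1 can match several transcripts of a gene. RefSeq gives *tcf3* the synonym *xtcf3*, a name that was also used for a gene of the Tcf/Lef family, and the annotation of these Xl-PSIDs was not tested here.

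**Figure D3:**
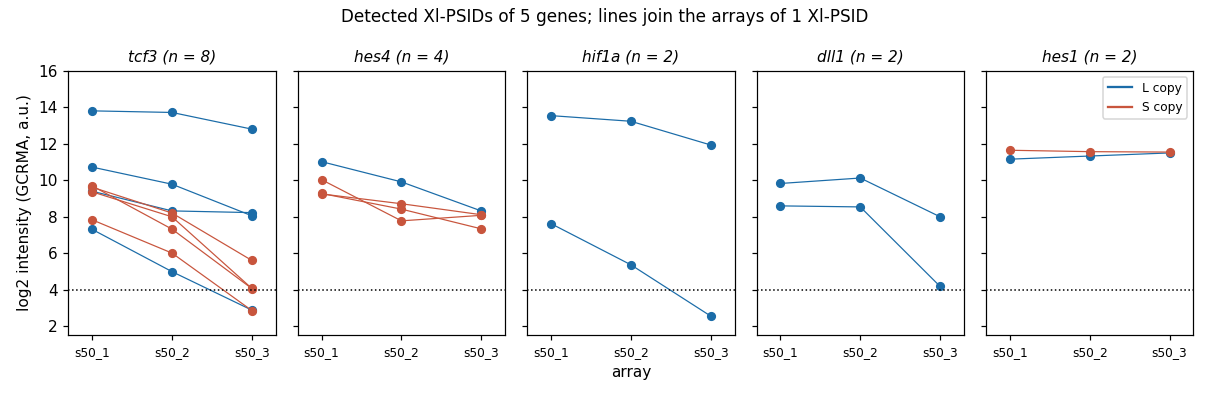
Log2 intensity (GCRMA, a.u.; vertical axis) on each *s50* array (horizontal axis) for the detected Xl-PSIDs of *tcf3*, *hes4*, *hif1a*, *dll1* and *hes1*, with L copies in blue, S copies in red and the detection threshold of 4 dotted. Lines join the values of an Xl-PSID, and the replicates have no order. All 8 Xl-PSIDs of *tcf3* are highest on s50_1 and lowest on s50_3, by 1.00 to 5.63, while both of *hes1* are nearly level.

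Of the mesodermal and blood bHLH genes, *twist1* and *tal1* were detected, and *hand1*, *hand2*, *myf5*, *myf6*, *myod1* and *tcf21* were not. The intensity of *twist1.L*, a factor of head mesenchyme, was 7.49, 3.51 and 2.33 (4.44 ± 2.71), so its detection rested on s50_1. The blood and endothelium factor gene *tal1.S* had 8.67, 9.91 and 8.29 (8.96 ± 0.84), with s50_2 highest, and its other Xl-PSID was not detected (1.92 ± 0.01). Markers of endothelium, all 3 of them detected, had a median difference from their own means of 0.45, 0.65 and -1.09, and their summed linear intensity was 3453, 4112 and 1110. They did not share an order, since *fli1.S* (11.42, 11.61 and 8.16) and *tek.S* (8.74, 8.94 and 7.20) were lowest on s50_3. In contrast, *pecam1.L* was highest there (8.15, 8.96 and 9.40). The 5 erythroid markers, all detected, had median differences of -0.01, 0.33 and -0.06 and a summed linear intensity of 76849, 78999 and 72647. The globin genes *hba3.L* (15.27 ± 0.02) and *hbd.S* (15.04 ± 0.06) weigh most in that sum. Of the others, *slc4a1.L* was lowest on s50_3 (11.28, 10.91 and 8.13), while *gata1.L* was highest there (3.67, 5.37 and 6.08). The part of these cells in the values of *tal1.S* was not tested. The muscle determination genes were at the level of the control probe sets, with *myf6.L* at 1.99, 2.05 and 2.05 (2.03 ± 0.04). The structural genes of muscle were detected on the same arrays, for example *actc1.L* with 14.25 ± 0.47 and *ckm.L* with 13.90 ± 0.64.

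Mxd proteins compete with Myc for the partner MAX. The intensity of *mxd4.S* was 11.88, 10.77 and 11.96 (11.54 ± 0.67), and that of *mxd4.L* was 10.43, 9.56 and 10.22 (10.07 ± 0.45). Both were lowest on s50_2. An Xl-PSID of *mxd3.L* had 11.90, 11.29 and 11.04 (11.41 ± 0.45), and its other 2 Xl-PSIDs and that of *mxd1.L* were not detected. The other Xl-PSID of *mxd4.L* was not detected either (2.15 ± 0.04).

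Clock genes form a loop in which CLOCK and BMAL1, encoded by *clock* and *arntl*, switch on *per* and *cry* genes, whose proteins act back on them. By gene 7 of 8 were detected, and *clock* itself was not, with means of 1.99 and 2.16 on its 2 Xl-PSIDs. The intensity of *cry4.L* was 9.78, 10.26 and 9.97 (SD 0.24), that of *bhlhe40.L*, a bHLH repressor of the loop, was 9.97, 9.93 and 9.82 (9.91 ± 0.08), and that of *cry1.L* was 9.82, 10.10 and 9.64 (9.85 ± 0.23). No clock Xl-PSID reached a range of 1.5. The values of *cry2* were 8.23, 9.55 and 8.97 for the L copy and 7.4, 8.78 and 8.67 for the S copy, and those of *per1.L* were 8.44, 9.57 and 9.41. These Xl-PSIDs of *cry2* and *per1* shared an order, with s50_2 highest and s50_1 lowest. The value of *per2.L* was 7.25 on s50_1 against 6.34 and 6.20, the opposite side for that array. The hour at which each pool was collected was not given in the sources used here.

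Hypoxia-inducible factors pair an alpha subunit, such as HIF1A or EPAS1, with an ARNT partner of the same bHLH-PAS family. The intensity of *epas1.S* was 10.99, 11.04 and 11.18 (11.07 ± 0.10), and *arnt2.L* had 12.77, 12.71 and 13.05 (12.84 ± 0.18). Values of *hif1a.L* were 13.54, 13.23 and 11.93 (12.90 ± 0.85) on an Xl-PSID and 7.62, 5.37 and 2.55 (5.18 ± 2.54) on another that can match several transcripts of a gene. The partner gene *arnt.S* had 10.21, 10.05 and 8.65 (9.64 ± 0.86) on an Xl-PSID, and its other Xl-PSID was not detected (1.87 ± 0.01). The L copy, *arnt.L*, had 9.28, 8.44 and 9.05 (8.92 ± 0.44), with s50_2 lowest. Thus *hif1a.L* and the detected Xl-PSID of *arnt.S* were lowest on s50_3, while *epas1.S* and *arnt2.L* were highest there. The gene *hif1an.S*, whose enzyme inhibits HIF1A, had a mean of 10.87 ± 0.30.

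**Figure D4:**
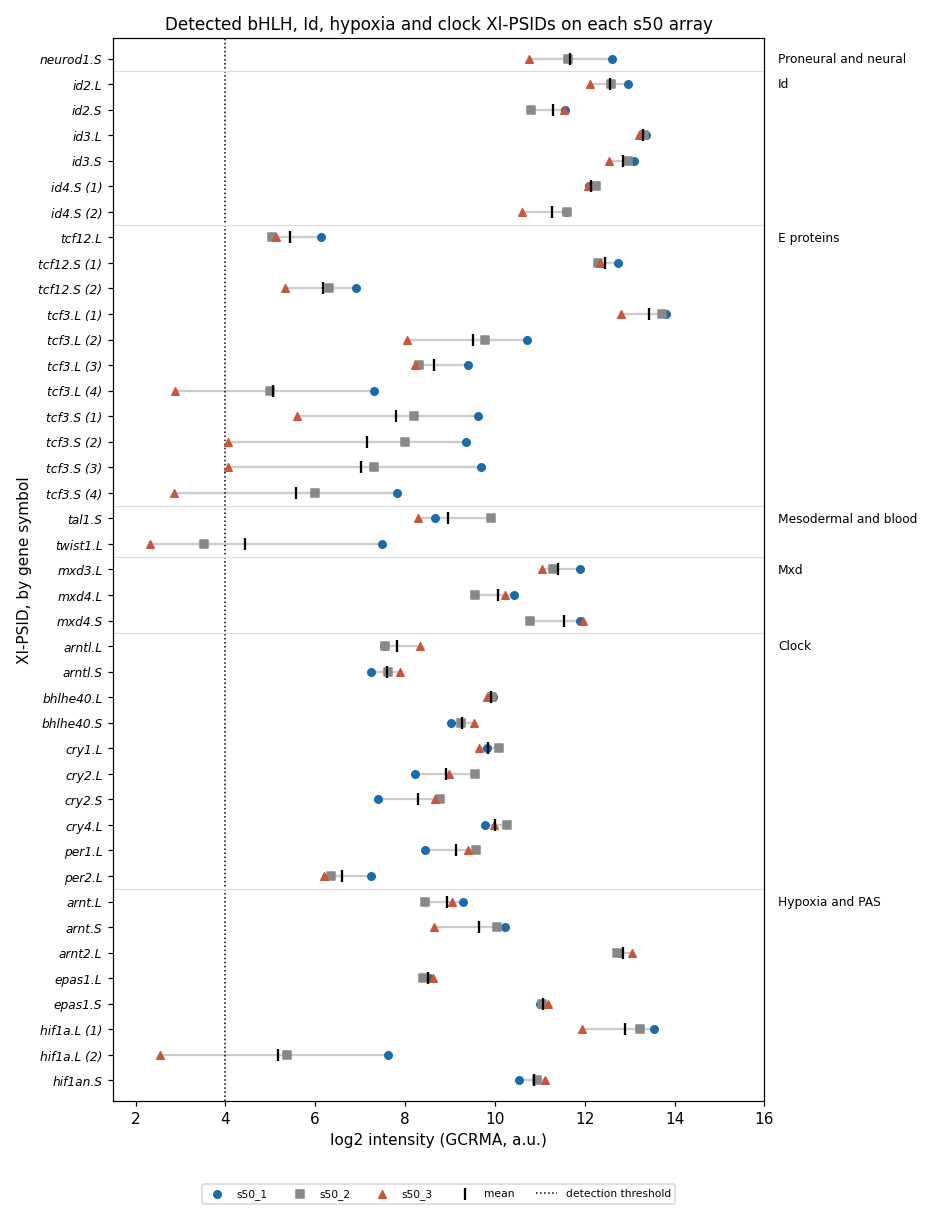
Log2 intensity (GCRMA, a.u.; horizontal axis) of each detected Xl-PSID of the other bHLH, Id, Mxd, clock and hypoxia genes (vertical axis) on the arrays s50_1 (circle), s50_2 (square) and s50_3 (triangle), with the mean as a black bar and the detection threshold of 4 as a dotted line. The widest spreads are those of *tcf3*, *twist1.L* and an Xl-PSID of *hif1a.L*, and both Xl-PSIDs of *epas1* are narrow.

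Over the 73 detected members the median SD was 0.57, beside 0.47 for all 11355 detected Xl-PSIDs with a single symbol. A range of at least 1.5 was found for 23 of 73 (31.5%), beside a background of 24.8%. By gene the share was 9 of 42 (21.4%) beside 22.0%. The share with such a range was smaller at higher levels in the members and in all Xl-PSIDs. It was 4 of 6 members with a mean between 4 and 6, beside 55.4% of all, and 1 of 12 with a mean of 12 or more, beside 3.51%. Without s50_3 the count of 23 became 7, without s50_1 it became 11 and without s50_2 it became 21. The range of an Xl-PSID cannot grow when an array is left out, so a fall was largely fixed in advance. The background with an array left out is not given here, so nothing about the members is concluded from these counts.

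Members that stood off on an array mostly lay above on s50_1 or below on s50_3, and these were largely the same Xl-PSIDs. On s50_1, 12 of 73 detected members lay at least 1.5 above the mean of the other arrays (16.4%, background 6.99%) and 0 lay that far below it (background 4.95%). On s50_3, 14 lay at least 1.5 below (19.2%, background 8.71%) and 0 above (background 4.39%). On s50_2 the counts were 1 above, which was *dll1.L* (1.37%, background 2.16%), and 0 below (background 2.17%). This Xl-PSID of *dll1.L* was also counted above on s50_1 and below on s50_3. The gene *tcf3* supplied 6 of the 12 and 6 of the 14, and the others came from *dll1.L*, *hes4*, *hes5.1.L*, *hey1.S*, *twist1.L* and *hif1a.L*. Apart from an Xl-PSID of *hes4.S*, every Xl-PSID above on s50_1 was also among those below on s50_3. The counts for these arrays are thus not separate results. Some of these Xl-PSIDs, such as that of *twist1.L*, reached a mean of 4 only through s50_1. With at least 4 asked on every array, 8 of 69 lay above on s50_1 and 10 below on s50_3. The background under that filter is not given here. With 1 Xl-PSID for each gene, 2 of 42 lay above on s50_1 (4.76%, background 4.68%) and 3 of 42 below on s50_3 (7.14%, background 7.10%). With the mean over all Xl-PSIDs of a gene, the counts were 6 of 42 above on s50_1 (14.3%, background 4.52%) and 5 of 42 below on s50_3 (11.9%, background 6.66%). Whether the genes stood above the background at this threshold thus depended on how the Xl-PSIDs of a gene were joined.

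A shared order of the arrays, which was looked at after the values were seen, was more frequent than in the background, also by gene. Of the 73 detected members 34 were highest on s50_1 and lowest on s50_3 (46.6%, background 22.6%). Without *tcf3*, 26 of the 65 detected Xl-PSIDs had this order. By gene it was 18 of 42 (42.9%), beside 21.0% of all detected genes, and with the mean over all Xl-PSIDs of a gene it was 14 of 42 (33.3%), beside 21.8%. The opposite order, with s50_3 highest and s50_1 lowest, was found for 12 members (16.4%) and for 33.0% of all detected Xl-PSIDs. The median difference of the members from their own means was 0.34, 0.07 and -0.32, beside -0.06, 0.05 and 0.05 for all. The order with s50_1 highest and s50_3 lowest was found for 9 of 11 detected E protein Xl-PSIDs, of which 8 were of *tcf3*. It was found for 8 of 13 Hes and Hey Xl-PSIDs, which came from *hes1*, *hes4*, *hes5.1* and *hey1*. The Id class had 3 of 6 Xl-PSIDs, the hypoxia class 3 of 8, Deltex 0 of 5, gamma-secretase 1 of 4 and the clock class 2 of 10. Xl-PSIDs of a gene are not separate results, so no difference between classes is concluded from these counts.

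**Figure D5:**
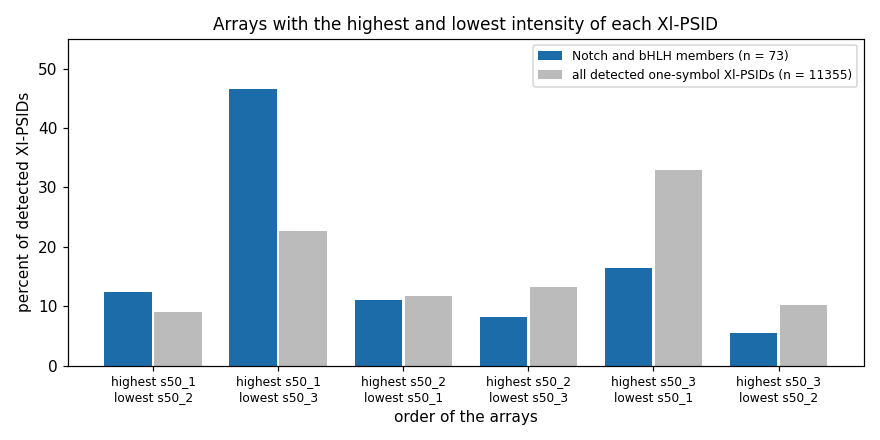
Percent of detected Xl-PSIDs (vertical axis, from 0) with each order of the *s50* arrays (horizontal axis, the array with the highest and the array with the lowest intensity), for the 73 detected members and for all 11355 detected Xl-PSIDs with a single symbol. Members with s50_1 highest and s50_3 lowest make up 46.6%, beside 22.6% of all, and the opposite order 16.4%, beside 33.0%.

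Several lists of cell type markers differed between the arrays, though not every marker of a list had the same order. The 5 detected markers of the supporting cell list were *gjb2*, *sox2*, *sox9*, *sox10* and *slc1a3*, and no otoconial or tectorial gene was measured. They were all above their own mean on s50_1 and all below it on s50_3, with median differences of 0.52, 0.05 and -0.44. Of these, *slc1a3.L* was lowest on s50_2 (11.86, 10.85 and 11.31) and lay just below its mean of 11.34 on s50_3. The summed linear intensity of the list was 50487, 42880 and 33211. Of these markers, *sox2.L* had 12.64, 12.13 and 10.53 (11.76 ± 1.10). The gene *sox9* is also in the cartilage list, with median differences of -0.02, 0.07 and -0.12. The gene *sox10* is also in the Schwann cell list, with -0.01, -0.03 and -0.03. Of the 12 detected neuron markers 8 were above their mean on s50_1, 6 on s50_2 and 2 on s50_3, with median differences of 0.26, 0.03 and -0.38 and a sum of 74508, 57896 and 42366. The neuron markers did not share an order. For example, *sncg.S* and *snap25.L* were highest on s50_1, but *nefl.L* and *nefm.S* were highest on s50_3. Muscle markers were low on s50_1, since 0 of 8 detected ones were above their mean there and all 8 on s50_2 and on s50_3. Of these, *tmod4.L* and *acta1.S* were highest on s50_2 and not on s50_3. The median differences of the muscle markers were -1.19, 0.44 and 0.63, and their sum was 39456, 79000 and 91199. The 3 hair cell markers had median differences of -0.16, -0.13 and 0.30. The shares of all detected genes above their own mean on each array are not given here. The part of these cells, of the RNA input and of the number of animals in the order of the member genes was not tested. In pooled tissue, fewer cells of a type and less RNA in each cell cannot be told apart.

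Several Xl-PSIDs were available for 38 of the 65 member genes. All of them were detected for 17 genes and none for 12, and for 9 genes some were detected and others not, as for *rfng*, *hes4* and *tal1*. For the 21 genes with at least 2 detected Xl-PSIDs, the array with the highest intensity was the same in all of them for 15 genes, the lowest array for 12, and both for 9. Both the L and the S copy were measured for 25 genes. Both copies were detected for 16 of these and neither for 8, and *neurod1* was the only gene with a single copy detected.

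Other genes of the pathway outside the rule were examined by the same measures. Of 31 measured genes, 28 were detected (90.3%, beside 80.5% of all genes) and *mib2*, *neurl4* and *sbno1* were not. A range of at least 1.5 was found for 8 of the detected (28.6%, beside 22.0% of all detected genes). The protease gene *adam10.S*, whose product makes the first cut of activated Notch, had 13.21, 12.63 and 12.22 (12.69 ± 0.50), and *adam17.L*, of the same family, had 3.84, 5.23 and 6.40 (5.16 ± 1.28). These proteases had opposite orders of the arrays. The ubiquitin ligase gene *mib1.L*, needed by ligands, had 10.77 ± 0.27, the Notch glycosylation gene *pofut1.L* had 10.89 ± 0.39, and the feedback inhibitor gene *nrarp.S*, a Notch target, had 12.14 ± 0.30. Of corepressor genes, *tle5.L* differed little between replicates (14.08 ± 0.11), whereas *hdac1.L* had 11.48, 11.35 and 9.01 (10.61 ± 1.39) and *ctbp1.S* had 11.94, 11.52 and 9.79 (11.08 ± 1.14). The median differences of the detected genes from their own means, with 1 Xl-PSID for each gene, were 0.09, -0.09 and 0.15. The member median of -0.32 on s50_3 was taken over Xl-PSIDs, with several for some genes, so these medians are not compared. Of the 28 detected genes, 18 were above their mean on s50_1, 8 on s50_2 and 15 on s50_3. Medians do not count orders, and genes such as *adam10.S*, *hdac1.L* and *ctbp1.S* were highest on s50_1 and lowest on s50_3. How many genes of the list had that order, beside all genes, was not tested.

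Of the bHLH factors outside the rule, 23 were measured and 11 detected (47.8%, beside 80.5% of all genes). The detected genes included *max.L*, the partner of Myc and Mxd proteins (13.90 ± 0.49), and *mycn.S*, which had 12.21, 11.10 and 6.60 (9.97 ± 2.97). The Myc antagonist gene *mnt.L* had 7.79, 6.79 and 4.83 (6.47 ± 1.51). Both *mycn.S* and *mnt.L* were highest on s50_1 and lowest on s50_3. The neural factor gene *nhlh1.L* was not detected but reached 5.58 on s50_1, against 1.91 and 1.94, as did *neurod6.L* on the same array. The median differences of the 11 detected factors were 0.27, 0.11 and -0.38. Among the 12 not detected were *mespa*, *mespb*, *msgn1* and *tcf15* of early mesoderm and *mitf*, *ptf1a* and *sim2*.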

How the data were processed

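RNA of 3 *s50* inner ear pools was hybridized to X. laevis Genome 2.0 arrays from Affymetrix, each pool to 1 array. The authors preprocessed the raw data in JMP Genomics by GCRMA, and they deposited the resulting log2 intensity of 32635 Xl-PSIDs, of which 96 are control probe sets. Whether GCRMA covered these arrays alone was not given in the sources used here, and no further normalization was applied. The platform's annotation gave 15505 Xl-PSIDs a single symbol, 279 several and 16851 none. Symbols were compared with RefSeq (Xenopus_laevis_v10.1), where 15394 matched and 2 had another symbol, and those of the annotation were kept. The files and this table hold no probe or transcript sequence. The 10 single-symbol controls were left out of the background.

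Members and lists were chosen with earlier results of these data known. Values by array were given for detected members with a range of at least 1.5, for up to 3 Xl-PSIDs with the highest mean in each role class and for means within 0.5 of the threshold. Members outside this rule, genes of the other lists, the order of the arrays and the exclusion of *tcf3* were chosen with the values in view. The code that counts Xl-PSIDs high or low on an array was tested on simulated data with known differences, which is no test of the counts themselves. Alternatives were detection at a mean of 3 or 5, at least 4 on every array or the median of the arrays, quantile normalization, a range or difference of 1 or 2, Xl-PSIDs without those that can match several transcripts, the brightest or the mean Xl-PSID of a gene, members without *mamld1* and *hif1an*, and leaving out each replicate. Python 3.11.15, pandas 2.3.3, NumPy 2.4.6 and Matplotlib 3.10.9 were used.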

Additional observations from a re-analysis of the deposited data

How the results depend on the processing

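The number of detected members was 58 to 76 under the alternatives that counted Xl-PSIDs. Of the 104 Xl-PSIDs left without those that can match several transcripts, 58 were detected. Of these 58, 14 had a range of at least 1.5, 7 lay above on s50_1 and 7 below on s50_3. The background without such Xl-PSIDs is not given here. With the brightest Xl-PSID of a gene, 42 genes were detected, 9 had that range, 2 lay above on s50_1, 0 above on s50_2 and 3 below on s50_3, and 18 were highest on s50_1 and lowest on s50_3. With all Xl-PSIDs of a gene averaged these counts were 42, 7, 6, 1, 5 and 14. Without *tcf3*, 6 of the 65 detected Xl-PSIDs lay above on s50_1 and 8 below on s50_3. The shares of all detected Xl-PSIDs, *tcf3* included, were 6.99% and 8.71%. A threshold of 1 gave 38 with that range, 20 above and 4 below on s50_1, 4 above and 5 below on s50_2, and 22 below on s50_3, and a threshold of 2 gave 13 with that range. The background at these thresholds, for detection at a mean of 3 and with a replicate left out is not given here. Nothing about the members is concluded from these counts. Detection at a mean of 3 left 1 below on s50_2. Leaving out each replicate in turn gave 70 to 73 detected, 7 to 21 with the range, 7 to 21 above on s50_1, 0 to 10 above and 1 to 7 below on s50_2, 0 to 1 above and 10 to 21 below on s50_3, and a median SD of 0.31 to 0.57. With 2 arrays left, the difference of an array is that from a single other array, and the range of an Xl-PSID cannot grow. The mean of each of the 123 Xl-PSIDs moved by less than its own SD under quantile normalization. The medians of the arrays as deposited were already close (7.53, 7.52 and 7.45), so a small move under this step says little about stability. For the median of the arrays and for a left-out replicate, a move within the SD is certain with 3 values and says nothing about stability. Without s50_1, for example, the mean of *twist1.L* went from 4.44 to 2.92. No paired analysis was possible because the arrays hold a single condition.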
